A study of Mus musculus with 8 samples.

Results

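The *Eps8*, villin and gelsolin families and espin encode proteins that cap, sever or bundle actin filaments, and 10 of their genes among the 24341 of the expression table are described here. They comprise the 4 *Eps8* family genes *Eps8*, *Eps8l1*, *Eps8l2* and *Eps8l3*, the 5 villin and gelsolin family genes *Vil1*, *Vill*, *Avil*, *Gsn* and *Scin*, and *Espn*. The genes were chosen by name, with earlier results of the same genotype contrast known, so their differences between genotypes are given as descriptions, and no p-value is used as evidence for them. Total RNA was sequenced from individual mouse pancreas buds at E11.0, labelled as strain CD1, of which 5 were WT and 3 were Lats1/2PanKO (genotype Pdx1Creearly;Lats1f/f;Lats2f/f). In the Lats1/2PanKO embryos, Cre recombinase driven by the *Pdx1* promoter deletes the floxed Hippo kinase genes *Lats1* and *Lats2* in pancreatic progenitors, so that mesenchyme, vessels and blood keep both genes. Mesenchyme was pulled off each bud with forceps before RNA was isolated, and ribosomal RNA was removed before stranded libraries were made. Expression is given as FPKM, which scales fragments to transcript length and to mapped reads, so levels can be set side by side between genes.

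Epithelial cells carry actin-filled microvilli on their apical surface, and the hair cells of the inner ear carry related structures, the stereocilia. EPS8 caps the growing end of the filament, bundles filaments and, in a complex with ABI1 and SOS1, signals to the GTPase RAC. Villin and gelsolin are calcium-regulated proteins that sever, cap and, in the case of villin, bundle filaments. Espin is a bundling protein of microvilli and stereocilia. In pancreatic epithelium, LATS kinases phosphorylate and restrain YAP1 and TAZ, which act through TEAD transcription factors, and *Eps8l2* is among the genes known as TEAD targets.

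The sequences upstream of the 2 genes whose Lats1/2PanKO buds all lay above all WT buds, *Eps8l2* and *Vill*, are shown because the promoters were searched for GGAATG, the core of the element that TEAD factors bind. They are taken from RefSeq on GRCm38.p6 and stop before the first base of the gene itself that either RefSeq or GENCODE annotates as transcribed. The first bases shown for *Eps8l2* lie within the neighbouring locus of *Deaf1* and *Tmem80*, which ends at 141338783 in the authors' table. *Eps8l2* is shown for chr7:141338752-141338879, plus strand, and *Vill* for chr9:119052528-119052777, plus strand, with GGAATG in capitals.
Eps8l2: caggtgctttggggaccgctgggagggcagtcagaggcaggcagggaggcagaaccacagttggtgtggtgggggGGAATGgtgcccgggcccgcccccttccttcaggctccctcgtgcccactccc
Vill: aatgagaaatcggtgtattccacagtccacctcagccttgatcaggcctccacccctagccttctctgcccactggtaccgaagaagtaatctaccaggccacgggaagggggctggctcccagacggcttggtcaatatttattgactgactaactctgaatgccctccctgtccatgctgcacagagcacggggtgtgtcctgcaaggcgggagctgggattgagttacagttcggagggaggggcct
In *Eps8l2* the match began at position -175 from the RefSeq start site, at 141339002, whereas the shown sequence stops before the GENCODE start, at 141338880. The 128 bases shown were 69.5% G and C. The 250 bases shown for *Vill* were 56.4% G and C and held no match.

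RefSeq promoter windows, which run from 250 bases before to 50 bases after a start site, were found for 9 of the 10 genes, 15 windows in all, and *Eps8* had no entry. GGAATG or its reverse complement CATTCC occurred in 1 of these 15 windows, that of *Eps8l2*, and in 14.7% of all 32851 windows of the same length. The TATA element TATAAA, searched on both strands as well, occurred in 0 of 15 windows and in 13.6% of all windows. The G and C content of the 15 windows ranged from 43% to 69%, against a median of 52.7% over all windows. The letter matches describe the windows and were not tied to the expression values below.

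Libraries and labels were checked first. *Lats1* was 15.6 ± 0.905 FPKM in WT (SD, n = 5) and 12.1 ± 1.87 FPKM in Lats1/2PanKO buds (SD, n = 3), with every Lats1/2PanKO bud below every WT bud, and its limma log2 difference was -0.35 (adjusted p = 0.269). *Lats2* was 13.8 ± 1.26 and 12.3 ± 1.15 FPKM, with overlap (log2 difference -0.16, adjusted p = 0.589). These values are for whole transcripts, and fragments from the parts of the transcript outside the floxed exons were not separated. The 8 markers listed for pancreatic progenitors summed to between 713 and 933 FPKM in WT and between 947 and 2405 FPKM in Lats1/2PanKO buds. None of them was at 0. The list includes the glucagon gene *Gcg*, a hormone gene of endocrine cells. By the average FPKM that the paper gives for *Gcg*, it made up most of the sum in both genotypes. The sum is therefore no measure of progenitor content. Lats1/2PanKO replicate 3 stood apart. Its 21 epithelial markers summed to 1269 FPKM, against 602 and 523 FPKM in Lats1/2PanKO replicates 1 and 2 and 268 to 342 FPKM in WT, and its 13 mesenchymal markers to 280 FPKM, against 461 and 655 FPKM and 617 to 800 FPKM. Results are therefore also given without it. In a bulk bud, fewer cells of a type and less RNA per cell cannot be told apart.

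The depth behind each value was read from the FPKM worth of 1 fragment, which was 0.096 to 0.133 FPKM in a transcript of 1000 bases, estimated from 393 single-exon genes. Taken at the longest coding transcript in GENCODE, the FPKM of *Eps8l2* corresponded to 75 to 1689 fragments per library, *Vill* to 154 to 401, *Espn* to 122 to 558, *Eps8* to 117 to 311 and *Gsn* to 70 to 159. The same conversion gave 8 to 34 fragments for *Vil1*, 3 to 31 for *Eps8l1*, 0 to 10 for *Avil*, 0 to 8 for *Scin* and 0 to 1 for *Eps8l3*. No difference is read from the last 4 genes at this depth, for which no detection limit was computed. Their means were below the 0.5 FPKM needed to enter the limma fit. The other 6 genes entered it, but *Vil1*, with a mean of 0.526 FPKM over the 8 libraries, did so only through Lats1/2PanKO replicate 3. At the shortest coding transcript the fragments would be 9 to 196 for *Eps8l2*, 19 to 50 for *Vill* and 30 to 138 for *Espn*. They would be 9 to 25 for *Eps8* and 17 to 39 for *Gsn*, so the numbers at the longest transcript are upper bounds.

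In WT buds the 10 genes fell into a group of 5 that were readily measured and a group of 5 with few fragments. *Vill*, which encodes villin-like protein, was highest of the 10 in all 5 WT buds. *Gsn*, *Espn*, *Eps8* and *Eps8l2*, whose WT means were 4.35, 3.91, 3.88 and 3.25 FPKM, exchanged ranks 2 to 5 between WT buds, so these neighbours did not differ beyond the spread. *Vil1* ranked 6 or 7, and the remaining genes were below it on average. In Lats1/2PanKO buds *Eps8l2* ranked 1 and *Vill* ranked 2 in all 3 buds, and *Gsn*, *Espn* and *Eps8* held ranks 3 to 5 in varying order.

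**Figure D1:**
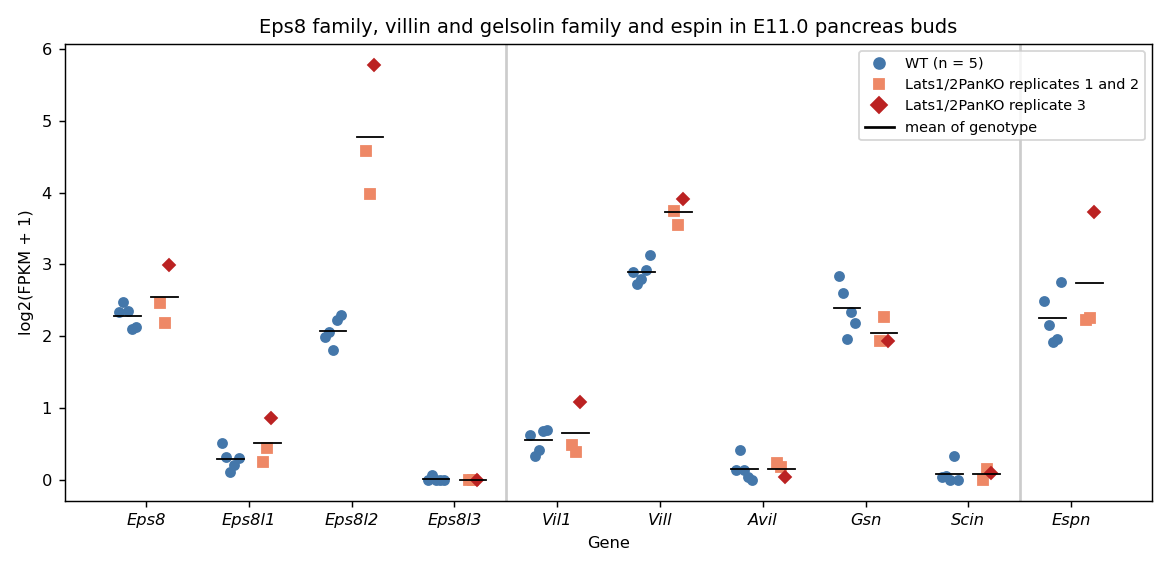
Expression of the 10 genes in each pancreas bud, as log2(FPKM + 1) on the vertical axis, with genes grouped by family along the horizontal axis. Circles are the 5 WT buds, squares Lats1/2PanKO replicates 1 and 2, diamonds Lats1/2PanKO replicate 3, and black bars the mean of each genotype. For *Eps8l2* and *Vill* all Lats1/2PanKO symbols lie above all WT symbols, and for the other 8 genes the genotypes overlap.

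*Eps8l2*, the EPS8-like gene associated with stereocilia of the inner ear, showed the widest separation among the 10 genes. Its values were 2.96, 3.18, 2.50, 3.68 and 3.92 FPKM in WT replicates 1 to 5 and 22.8, 14.8 and 53.9 FPKM in Lats1/2PanKO replicates 1 to 3. All Lats1/2PanKO buds were above all WT buds, and the lowest of them, replicate 2, was well clear of the highest WT bud. The means were 3.25 ± 0.568 FPKM (SD, n = 5) and 30.5 ± 20.6 FPKM (SD, n = 3), a ratio of 9.39, and the log2 difference on the log2(FPKM + 1) scale was 2.70 with a standard error of 0.34. Without Lats1/2PanKO replicate 3 the ratio of means was 5.79 and the log2 difference 2.2004. In the authors' table *Eps8l2* occupies chr7:141339002-141365110 on mm10, a locus shared with the gene B230206H07Rik on the opposite strand.

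*Eps8*, the founding member of the family and a capper and bundler of filaments, was expressed at a similar level to *Eps8l2* in WT buds. It measured 4.05, 4.55, 4.10, 3.30 and 3.39 FPKM in WT and 4.50, 3.54 and 6.92 FPKM in Lats1/2PanKO replicates 1 to 3. Lats1/2PanKO replicate 3 was the highest of the 8 buds, and the other 2 were within the WT range. The log2 difference was 0.26 with a standard error of 0.18, and 0.04 without replicate 3.

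*Eps8l1*, another EPS8-like protein, measured 0.0825 to 0.423 FPKM in WT and 0.193, 0.359 and 0.812 FPKM in Lats1/2PanKO replicates 1 to 3. Replicate 3 was again the highest bud and the others overlapped with WT. *Eps8l3* was listed at 0 in 7 of 8 libraries and at 0.0466 FPKM in WT replicate 2.

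The makeup of the family differed accordingly. The summed FPKM of the 4 *Eps8* family genes was 6.68 to 8.02 in WT buds (median 7.44) and 18.7 to 61.6 in Lats1/2PanKO buds. *Eps8l2* made up 37.4% to 52.0% of that sum in WT (median 39.8%) and 79.1% to 87.5% in Lats1/2PanKO buds, while *Eps8* made up 44.9% to 61.4% and 11.2% to 19.0%. The share of *Eps8l2* therefore lay above the WT range in all 3 Lats1/2PanKO buds.

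*Vill* was the second gene in which the genotypes did not overlap. Its values were 6.41, 5.60, 5.94, 6.61 and 7.74 FPKM in WT replicates 1 to 5 and 12.4, 10.7 and 14.0 FPKM in Lats1/2PanKO replicates 1 to 3. All 3 Lats1/2PanKO buds were above the highest WT bud, and they differed less among themselves than for *Eps8l2*. The means were 6.46 ± 0.816 FPKM (SD, n = 5) and 12.4 ± 1.67 FPKM (SD, n = 3), a ratio of 1.91, with a log2 difference of 0.84 and a standard error of 0.12. Without Lats1/2PanKO replicate 3 the ratio was 1.78 and the log2 difference 0.75. *Vill* lies at chr9:119052778-119071525 and overlaps no other locus of the table.

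*Gsn*, encoding gelsolin, a filament-severing protein found in many cell types including mesenchyme, lay in the opposite direction. It measured 6.16, 5.08, 2.90, 4.07 and 3.53 FPKM in WT and 2.81, 3.82 and 2.81 FPKM in Lats1/2PanKO replicates 1 to 3. Lats1/2PanKO replicates 1 and 3 were just below the lowest WT bud and replicate 2 was inside the WT range, so the genotypes overlapped. The log2 difference was -0.35 with a standard error of 0.20, and -0.29 without replicate 3.

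*Vil1*, encoding villin, the major microvillar bundling and severing protein of the intestine, stayed near the lower limit. Its values were 0.549, 0.266, 0.336, 0.598 and 0.621 FPKM in WT and 0.404, 0.314 and 1.119 FPKM in Lats1/2PanKO buds. Replicate 3 was the highest of all 8, and the other 2 were within the WT range. The log2 difference was 0.10 with a standard error of 0.20, and it was -0.11 without replicate 3.

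The locus of *Vil1* in the table also spans *Plcd4*, *Rqcd1*, *Usp37* and *Zfp142*. *Avil*, encoding advillin, a villin relative of sensory neurons, measured 0 to 0.342 FPKM in WT and 0.0329 to 0.173 FPKM in Lats1/2PanKO buds. *Scin*, encoding the severing protein scinderin, measured 0 to 0.257 FPKM and 0 to 0.110 FPKM, with 3 of 8 libraries at 0. Both ranges overlapped. Of the summed FPKM of the 5 villin and gelsolin family genes, which was 9.29 to 13.3 in WT and 15.04 to 18.0 in Lats1/2PanKO buds, *Vill* made up 48.4% to 65.1% in WT and 70.9% to 78.6% in Lats1/2PanKO buds, and *Gsn* 29.7% to 46.5% and 15.6% to 25.4%. Neither share overlapped between genotypes. Both are parts of the same sum and make up most of it, so they are not separate results, and the FPKM of *Gsn* itself overlapped.

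*Espn*, encoding espin, was dominated by a single bud. It measured 4.65, 3.45, 2.80, 2.91 and 5.74 FPKM in WT and 3.66, 3.77 and 12.3 FPKM in Lats1/2PanKO replicates 1 to 3. Replicate 3 was far above all other buds, whereas replicates 1 and 2 lay inside the WT range. The log2 difference of 0.48 had a standard error of 0.35, and without replicate 3 it was -0.02.

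Over all 10 genes, 6 had a higher mean in Lats1/2PanKO buds, and in the same number Lats1/2PanKO replicate 3 was the highest of the 8 libraries. The median log2 difference was 0.17 over the 10 genes and 0.37 over the 6 that entered the fit, against -0.01 over all 13777 genes tested. Without replicate 3 these medians were 0.02 and 0.0087. All Lats1/2PanKO buds lay above all WT buds in 2 of the 10 genes, with or without replicate 3, against 4.46% of all tested genes, and all lay below in 0, against 3.06%. With limma and Benjamini-Hochberg adjustment 0 of the 6 genes were called, and 2, *Eps8l2* and *Vill*, had an unadjusted p under 0.05. The shares over all tested genes were 0.0145% and 11.3%. Both genes were called with a pseudocount of 0.1, with array weights or without Lats1/2PanKO replicate 2, and *Eps8l2* alone without replicate 3, under settings that also called 18 to 174 genes in all. As the genes were chosen with this contrast known, nothing is read from these counts. *Eps8l2* held rank 24 of 13777 by log2 difference and *Vill* rank 266, whereas *Gsn* had 6.05% of tested genes below it.

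**Figure D2:**
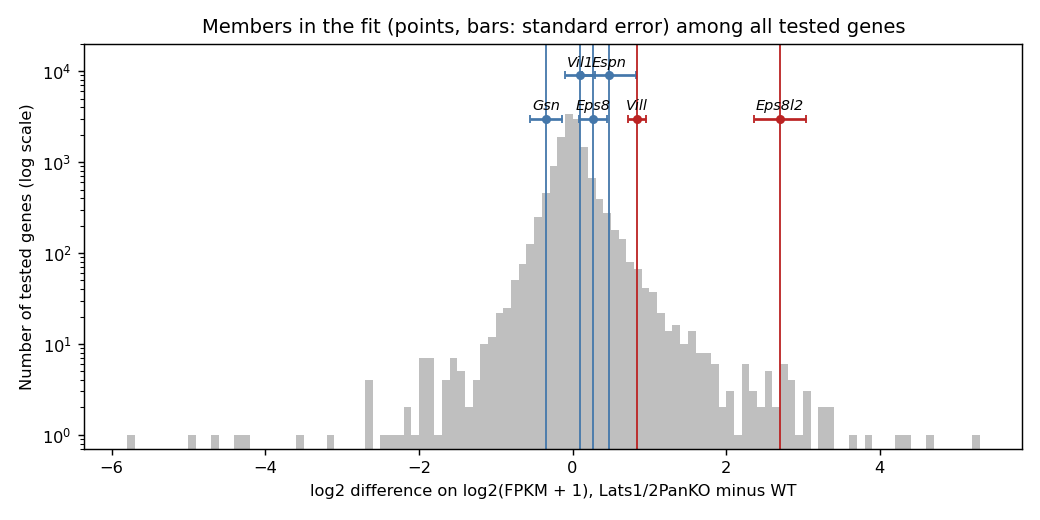
Distribution of the log2 difference, Lats1/2PanKO minus WT on log2(FPKM + 1), over the 13777 tested genes (grey bars, number of genes on a log axis), with the 6 actin regulator genes in the fit as points with standard errors and vertical lines. Red marks genes in which all Lats1/2PanKO buds lay above all WT buds. *Eps8l2* at 2.70 lies in the sparse right tail, *Vill* at 0.84 on the right shoulder, and the other 4 genes between -0.35 and 0.48.

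Markers of epithelium differed between genotypes as well. All 21 epithelial markers had a higher mean in Lats1/2PanKO buds, 17 of them without overlap, with a median log2 difference of 1.06, or 0.67 without replicate 3. Of the mesenchymal markers tested, 11 of 12 were lower, 2 without overlap, with a median of -0.43, or -0.16 without replicate 3. None of the markers in either list was at 0 in any library. The part of the cell makeup in the differences was not tested, but each gene was also expressed per 1000 FPKM of summed epithelial markers, a measure added after the values had been seen.

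On this scale *Eps8l2* stayed apart. It measured 9.29 to 12.0 per 1000 epithelial FPKM in WT and 38.0, 28.2 and 42.4 in Lats1/2PanKO replicates 1 to 3, a ratio of means of 3.47 with no overlap. With *Cdh1* alone, *Epcam* alone or the list without keratins as the denominator, the ratio was 3.63 to 3.88. *Vill* did not stay apart, at 16.4 to 23.6 in WT and 20.6, 20.4 and 11.04 in Lats1/2PanKO buds, a ratio of 0.83, or 0.87 to 0.93 with the other denominators. Per epithelial marker, *Vill* lay within the WT range in Lats1/2PanKO replicates 1 and 2 and below it in replicate 3.

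The other genes lay lower per epithelial marker. The epithelial sum was higher in every Lats1/2PanKO bud than in every WT bud, which lowers the Lats1/2PanKO values on this scale. A gene with similar FPKM in both genotypes therefore falls by construction. The share of all genes without overlap on this scale was not computed. *Eps8* had a ratio of 0.52, from 10.3 to 15.3 in WT to 5.45 to 7.47 in Lats1/2PanKO buds, and *Gsn* a ratio of 0.34, from 10.8 to 20.1 to 2.21 to 7.31, both with no overlap. *Espn*, with a ratio of 0.61, and *Vil1*, with a ratio of 0.47, overlapped. Set per 1000 FPKM of mesenchymal markers instead, *Gsn* was 3.63 to 9.22 in WT and 6.09, 5.82 and 10.03 in Lats1/2PanKO buds, which overlapped. *Eps8l2*, at 3.12 to 5.22 and 22.5 to 192, and *Vill*, at 7.43 to 10.2 and 16.3 to 50.1, did not overlap. The mesenchymal sums of Lats1/2PanKO replicates 1 and 3 were below every WT bud, which raises their values on this scale.

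**Figure D3:**
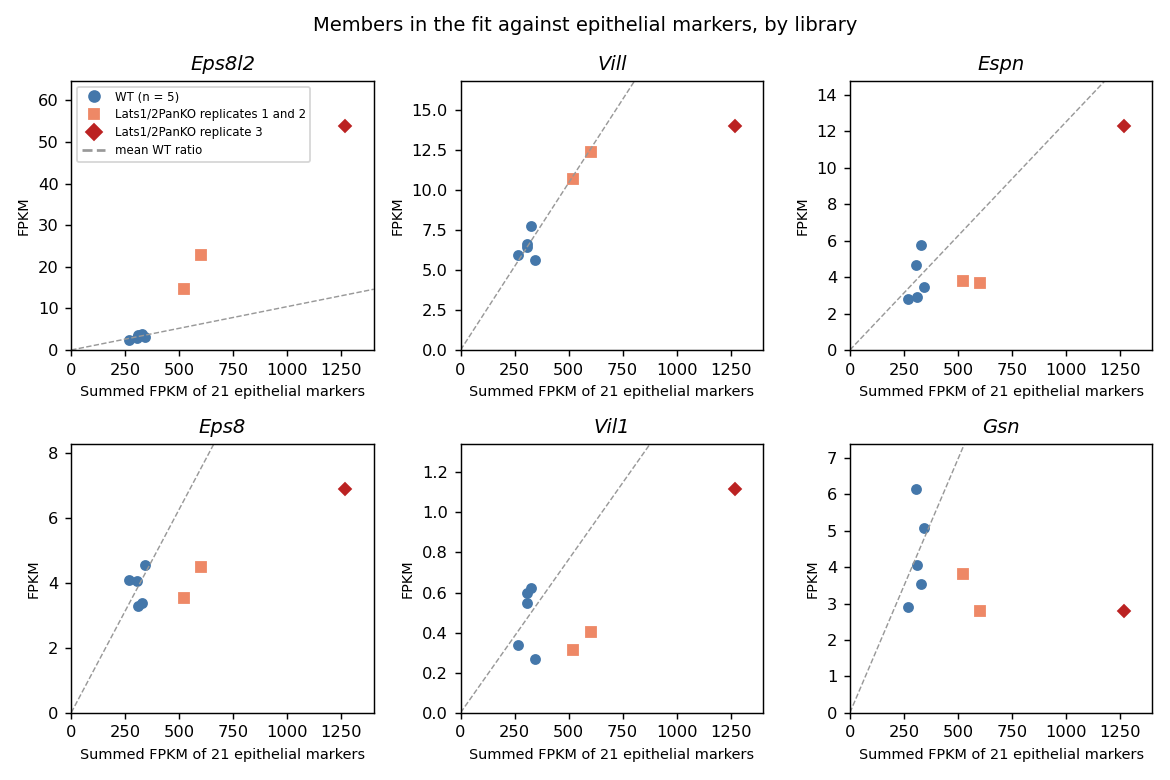
FPKM of each of the 6 genes in the fit (vertical axis) against the summed FPKM of 21 epithelial markers (horizontal axis) in each of the 8 buds. The dashed line is the mean WT ratio, circles are WT, squares Lats1/2PanKO replicates 1 and 2, and the diamond Lats1/2PanKO replicate 3. The 3 Lats1/2PanKO buds lie above the line for *Eps8l2*, 2 of them close to it for *Vill*, and all below it for *Eps8*, *Gsn*, *Espn* and *Vil1*.

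Markers of other cells that a bud could hold are given for the same reason. The 10 endothelial markers were all lower, 2 without overlap, and summed to 129 to 204 FPKM in WT and 91.1 to 143 FPKM in Lats1/2PanKO buds. Red cell markers summed to 2624 to 15712.5 and 7935 to 10127 FPKM, leukocyte markers to 14.0 to 27.6 and 20.6 to 29.2 FPKM, and nerve and neural crest markers to 18.2 to 25.3 and 21.1 to 37.0 FPKM. Liver markers summed to 98.3 to 170 FPKM in WT and 172, 130 and 376 FPKM in Lats1/2PanKO replicates 1 to 3, and all 8 that were tested had a higher mean. Stomach and intestine markers, the tissue in which villin is most abundant, summed to 1.06 to 2.198 and 1.31 to 2.95 FPKM, with 2 of 10 tested and *Fabp1*, *Tff2* and *Gkn2* at 0 in all libraries. The part of these cell types in the differences was not tested.

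The partners of these proteins were then examined in 5 lists holding 94 genes, of which 80 were tested. None of the 80 passed an adjusted p of 0.05 in limma, 11 were higher and 5 lower at an unadjusted p under 0.05, and 5 lay wholly above and 3 wholly below WT. Over all tested genes these shares were 11.3% at an unadjusted p under 0.05 in either direction, 4.46% wholly above and 3.06% wholly below. The median log2 difference over the lists was -0.0050, against -0.01 over all tested genes.

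Brush border and microvillus partners had a median log2 difference of -0.01 over 19 tested genes of 27. The 3 with the smallest p were *Baiap2l1*, a membrane-bending adaptor that binds EPS8, at 5.60 ± 0.910 and 9.49 ± 2.90 FPKM (log2 difference 0.64, adjusted p = 0.261), the mucin *Muc1* (log2 difference 0.66, adjusted p = 0.287) and the motor *Myo5b* (log2 difference 0.85, adjusted p = 0.328). Both *Baiap2l1* and *Muc1* lay wholly above WT in Lats1/2PanKO buds. Without replicate 3 the log2 differences were 0.43 for *Baiap2l1*, 0.43 for *Muc1* and 0.47 for *Myo5b*. *Ezr*, encoding ezrin, which links actin to the apical membrane, was 68.9 ± 8.50 FPKM in WT and 68.1 ± 5.60 FPKM in Lats1/2PanKO buds, and was singled out after its values were seen.

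Actin bundlers and stereocilium partners had a median of -0.04 over 8 tested genes of 14, and the smallest p-values belonged to the bundler *Pls3* (log2 difference 0.22, adjusted p = 0.365), *Whrn* (-0.25, adjusted p = 0.674) and *Gpsm2* (-0.08, adjusted p = 0.731). Signaling partners of EPS8 had a median of -0.03 over 13 genes. The exchange factor *Sos2* was 15.8 ± 1.07 FPKM in WT and 12.98 ± 0.555 FPKM in Lats1/2PanKO buds, wholly below WT (log2 difference -0.26, adjusted p = 0.269), the receptor *Egfr* had a log2 difference of 0.66 (adjusted p = 0.362) and *Wasf1* of -0.28 (adjusted p = 0.495). Without Lats1/2PanKO replicate 3, *Wasf1* was at -0.08 and *Gpsm2* at -0.04.

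Other gelsolin-fold, capping and severing proteins had a median of 0.01 over 18 genes. *Lrrc16a*, a regulator of capping protein, had a log2 difference of 0.62 (adjusted p = 0.296), *Add3*, encoding an adducin, of -0.21 with all Lats1/2PanKO buds below WT (adjusted p = 0.353) and *Twf2*, encoding a twinfilin, of -0.26 (adjusted p = 0.429). Actin, nucleators and elongators had a median of 0.05 over 22 genes. *Actr3*, a subunit of the Arp2/3 complex, was 96.9 ± 7.49 FPKM in WT and 129 ± 18.8 FPKM in Lats1/2PanKO buds, wholly above WT (log2 difference 0.40, adjusted p = 0.207). It was called with limma's array weights (log2 difference 0.38, adjusted p = 0.0421), and its adjusted p ranged up to 0.612 over the alternatives. *Arpc5*, another subunit, had a log2 difference of 0.33 (adjusted p = 0.291) and the formin *Daam1* of 0.49 (adjusted p = 0.292). Without Lats1/2PanKO replicate 3, *Daam1* was at 0.31 and *Lrrc16a* at 0.39.

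**Figure D4:**
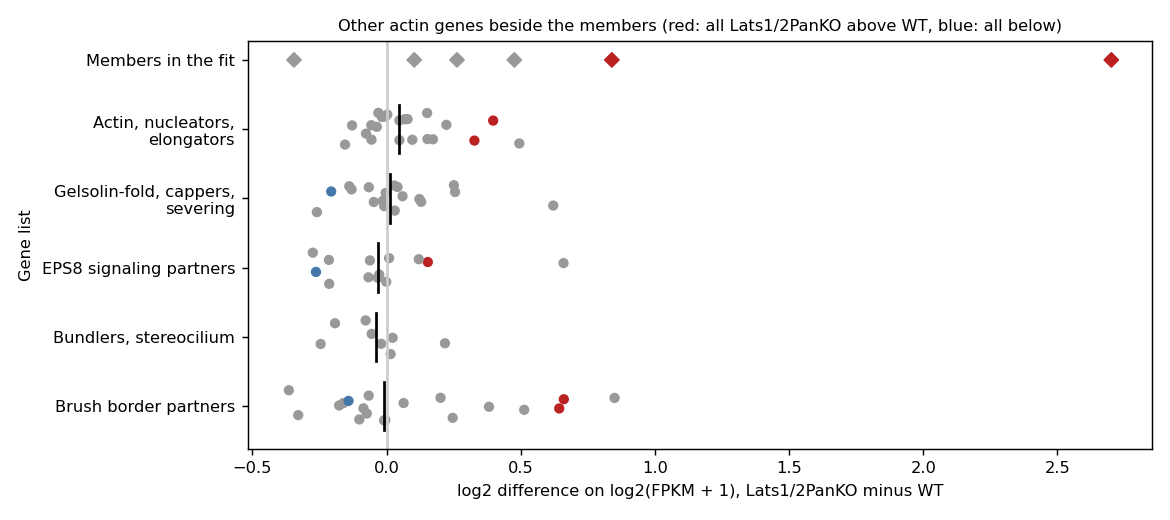
The log2 difference, Lats1/2PanKO minus WT, of each tested gene in the 5 lists of partner genes (points, 80 genes) and of the 6 actin regulator genes in the fit (diamonds). Black bars are list medians, and red and blue mark genes with all Lats1/2PanKO buds above or below all WT buds. List medians lie between -0.04 and 0.05, and *Eps8l2* at 2.70 lies beyond every partner gene, the highest of which is *Myo5b* at 0.85.

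Genes around the 10 loci were compared because the *Eps8l2* locus overlaps another gene. Within 100000 bases of the 10 loci lay 86 genes, of which 59 were tested and 0 were called by limma after adjustment, with 7 at an unadjusted p under 0.05. All Lats1/2PanKO buds lay above WT in 3 of them and below in 2. These counts were close to the shares over all tested genes, 11.3%, 4.46% and 3.06%. Around *Eps8l2* 14 of 17 neighbours were tested, and 2 lay wholly above WT. These were B230206H07Rik, which lies antisense in the same locus, at 0.146 FPKM in WT and 1.45 FPKM in Lats1/2PanKO buds (log2 difference 0.97, adjusted p = 0.291, and 0.57 without Lats1/2PanKO replicate 3), and *Cracr2b*, at 1.122 and 2.33 FPKM (log2 difference 0.67, adjusted p = 0.269). B230206H07Rik measured 0 to 0.309 FPKM in WT and 1.11, 0.368 and 2.86 FPKM in Lats1/2PanKO replicates 1 to 3, so that it passed the filter only through the group in which it was high, and its p is no support for a difference. The libraries and the alignment kept strand, and fragments on the wrong strand were not separated here.

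The other 12 tested neighbours of *Eps8l2* had log2 differences between -0.33 and 0.77 and overlapped between genotypes. The nearest of them were *Tmem80* at 0.10 and *Deaf1* at 0.09 on one side and *Taldo1* at 0.14 on the other, and without Lats1/2PanKO replicate 3 they were at 0.32, 0.02 and 0.04. *Phrf1* (0.07), *Pnpla2* (0.08), *Pddc1* (0.01), *Pidd1* (-0.08) and *Rplp2* (-0.06) were near 0. *Sct* (0.27), *Slc25a22* (-0.24), *Cend1* (-0.33) and the small nucleolar RNA *Snora52* (0.77) had wider differences, and no adjusted p was below 0.05. Without replicate 3, *Cend1* was at -0.14. *Tmem80*, *Deaf1*, *Pddc1*, *Pidd1*, *Pnpla2*, *Rplp2* and *Sct* turned direction under at least 1 alternative. The difference at *Eps8l2* was 2.70 on the same scale.

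**Figure D5:**
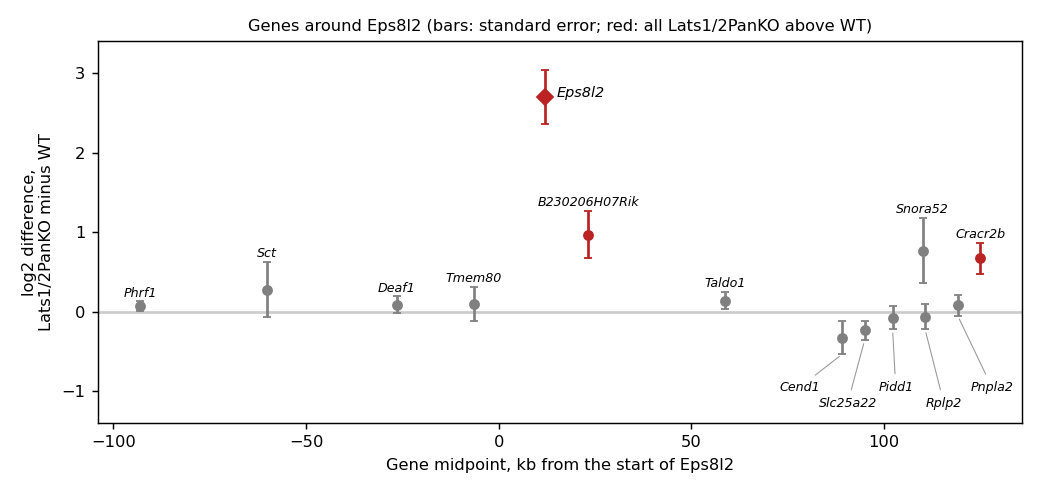
The log2 difference, Lats1/2PanKO minus WT, with its standard error (vertical axis) of *Eps8l2* (diamond) and 13 of its 14 tested neighbours (circles), placed at the gene midpoint in kb from the start of *Eps8l2* (horizontal axis). Red marks genes with all Lats1/2PanKO buds above all WT buds. *Eps8l2* stands at 2.70, its antisense neighbour B230206H07Rik at 0.97 and *Cracr2b* at 0.67.

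The genes most like *Eps8l2* were sought by the root mean square difference of centred log2(FPKM + 1) over the 8 libraries. The 5 nearest were 1700011H14Rik (0.278), *Krt19* (0.286), *Clu* (0.291), BC021891 (0.294) and *Akr1cl* (0.313). *Krt19*, a simple epithelial keratin that is also one of the epithelial markers, measured 2.13 to 4.05 FPKM in WT and 13.4, 15.3 and 47.0 FPKM in Lats1/2PanKO replicates 1 to 3. *Clu*, encoding the secreted chaperone clusterin, measured 15.4 to 19.8 FPKM and 69.9, 63.4 and 141 FPKM. In all 5 genes every Lats1/2PanKO bud was above every WT bud and replicate 3 was the highest, as for *Eps8l2*. This largely follows from choosing them by likeness in the same libraries.

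The 3 genes nearest to *Vil1* were *Klhl13* (0.0691), *Mecom* (0.0905) and *Vamp1* (0.0933), and those nearest to *Gsn* were 2810032G03Rik (0.120), *Cpt1a* (0.125) and *Ankrd6* (0.133). For *Vill*, the same measure, applied after its values had been seen, gave *Nap1l2* (0.123), *St3gal5* (0.138), a ganglioside synthesis enzyme, and *Tnfrsf21* (0.147). *St3gal5* measured 10.96 to 12.8 FPKM in WT and 19.7, 18.4 and 26.1 FPKM in Lats1/2PanKO buds. These 3 genes also differed without overlap, by ratios of means between 1.80 and 1.94. Both traits largely follow from choosing genes by likeness to *Vill* in the same libraries.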

How the data were processed

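The authors sequenced total RNA of 8 single buds. Per the labels and methods they trimmed reads with cutadapt 1.12, aligned them to mm10 (GRCm38) with TopHat2 2.1.0 and obtained FPKM from Cufflinks/Cuffdiff 2.2.1. The FPKM values of 24341 genes were used as the authors deposited them. The methods name quantile normalization, but the 8 columns differ in distribution. The libraries are separate buds per the labels, and genotype came from the same labels.

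Members and lists were chosen with earlier results of these data known. Genes averaging 0.5 FPKM or more, 13777 in all, entered a limma 3.58.1 fit (R 4.3.3) of log2(FPKM + 1) on genotype, with the residual variance allowed to depend on the mean, Benjamini-Hochberg adjustment and a threshold of 0.05. The pseudocount understates differences of low genes, and the fit was first tested on simulated data. The fit covered the 6 members past the filter, and their p-values, known when the genes were chosen, are used only for a count beside the share of all genes. FPKM hold no counts, so counting error has no interval here, and fragments were estimated from single-exon genes of at least 1500 bases.

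Besides the members, the text names called genes and the 3 smallest p of each partner list, called neighbours within 100000 bases and each tested neighbour of *Eps8l2*, the genes nearest in profile to *Eps8l2*, *Vil1* and *Gsn*, markers at 0 throughout, *Lats1* and *Lats2*. Alternatives were a pseudocount of 0.1, a minimum of 2 FPKM or none, quantile or median-ratio scaling, array weights, a constant prior variance, a replicate block and omission of each library. The epithelial denominators were added after seeing the data. Loci are those of the authors' table, promoters are from RefSeq (GRCm38.p6) and transcripts from GENCODE M21. Plots used matplotlib 3.10.9 (Python 3.11.15).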

Additional observations from a re-analysis of the deposited data

Results flagged for a closer look

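Within the 5 WT buds, 4 of the 41 genes examined had a bud whose gap to the nearest other bud exceeded Dixon's 95% critical value, and chance flags about 1 in 20 groups. *Eps8l3* was at 0.0466 FPKM in WT replicate 2 and at 0 in the other 4, so any value above 0 would have been flagged. *Scin* was at 0.257 FPKM in WT replicate 4, against 0 to 0.0346 FPKM. Both lie at the floor, where the rate of 1 in 20 does not hold. *Lats2* was at 11.6 FPKM in WT replicate 5, against 14.0 to 14.7 FPKM. *Slc25a22*, a neighbour of *Eps8l2*, was at 7.13 FPKM in WT replicate 4, against 9.21 to 9.76 FPKM. The Lats1/2PanKO group of 3 was too small for this test.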

How the results depend on the processing

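Of the 16 alternatives, only quantile and median-ratio scaling could have made the values of *Eps8l2* or *Vill* overlap between genotypes, and under both they did not. The log2 differences ranged from 2.2004 to 3.10 and from 0.75 to 0.93. The log2 differences of *Espn* (-0.02 to 0.73) and *Vil1* (-0.11 to 0.23) crossed 0, below it only without Lats1/2PanKO replicate 3. Array weights, the constant prior variance and the changed minimum could not move these differences, because those of the 10 genes were computed without weights. The ranges therefore rest on the other alternatives. With a pseudocount of 0.1, *Eps8l1* moved to 0.68 and *Eps8l3* to -0.11. The median over the 10 genes was 0.17, and 0.015 to 0.25 when each library was left out.

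Over all tested genes limma called 2. It called 18 with a pseudocount of 0.1, 174 with array weights, 1 without the trend, and 0 to 69 when each library was left out (69 without Lats1/2PanKO replicate 2 and 19 without replicate 3). Array weights called 1 partner gene. No alternative called a neighbour. The causes were not tested.

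Groups share replicate numbers, but deviations of same-numbered buds correlated at 0.0855, -0.0969 and 0.0685, so the numbers were not taken to pair the buds. The replicate block called 1 gene and gave a median of 0.17 over the 10 genes.

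Some neighbours of *Eps8l2* turned direction. With array weights *Deaf1* was at -0.0030, *Pidd1* at 0.15, *Pnpla2* at -0.061 and *Sct* at -0.21. With the replicate block *Rplp2* was at 0.037 and *Tmem80* at -0.11, and with quantile normalization *Rplp2* was at 0.064. Leaving out each library in turn gave -0.086 to 0.10 for *Pddc1*, -0.22 to 0.083 for *Pidd1*, -0.052 to 0.20 for *Pnpla2*, -0.11 to 0.70 for *Sct* and -0.021 to 0.32 for *Tmem80*. Protein identity between members was not run. With 3 Lats1/2PanKO buds and few fragments, no difference is read from *Eps8l1*, *Eps8l3*, *Avil* and *Scin* at this depth.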
